A study of Mus musculus with 6 samples.

Results

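Dishevelled proteins and the receptors and effectors of noncanonical Wnt signalling were followed as 10 genes in embryonic mouse kidney: Dvl1, Dvl2, Dvl3, Ror1, Ror2, Ryk, Ptk7, Daam1, Scrib and Ankrd6. The genes were listed by name, and every probe set that the array annotation gives to one of them alone was taken, which made 21 of the 45037 probe sets tested. Each gene was represented by its brightest probe set, the one with the highest mean over the 6 arrays, so that these are 10 of 18193 genes. RNA of whole embryonic kidneys (stage E13.5) had been hybridised to the Affymetrix array MOE430.2. In the first group the kidneys carried the genotype Fz4-/-Fz8-/- and are called double-null (arrays M1, M2 and M3). In the second they carried Fz4+/+Fz8-/- and are called Fz8-null (arrays C1, C2 and C3). Both groups therefore lacked Fz8, neither is wild type, and both were bred on a mixed background of the strains C57BL/6, 129X1/SvJ and also 129S1/Sv. The series holds 3 biological replicates of each genotype, but whether RNA of several embryos was pooled for an array is not stated. The comparison shows what the added loss of Fz4 goes with in kidneys that already lack Fz8.

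Frizzled receptors such as Fz4 and Fz8 bind secreted Wnt proteins at the cell surface and pass the signal to Dishevelled, a cytoplasmic scaffold encoded by Dvl1, Dvl2 and Dvl3. Dishevelled feeds both the canonical branch, which stabilises beta-catenin, and noncanonical branches, which steer cell polarity, movement and the actin cytoskeleton. Ror1, Ror2, Ryk and Ptk7 encode single-pass receptors related to receptor tyrosine kinases that bind Wnt proteins or work beside Frizzled, mostly in the noncanonical branches. Daam1 encodes a formin that links Dishevelled to actin assembly, Scrib a scaffold of cell polarity, and Ankrd6 the ankyrin repeat protein Diversin, which binds Dishevelled. In the mouse kidney, Wnt5a and its receptor Ror2 are known for their part in placing the ureteric bud, and Wnt11, Wnt9b and Wnt4 for branching and for the formation of nephrons.

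The start regions of the 3 Dishevelled genes and of Ryk are shown because the genotype groups were separate for Dvl2 and Ryk and overlapped for Dvl1 and Dvl3. The groups were also separate for Ankrd6, which has several annotated windows and is not shown. Each window runs from 250 bases before to 50 bases after an annotated transcription start in RefSeq (GRCm38.p6), 5′ to 3′ along the gene. Capitals mark the E-box core CACGTG, the cyclic AMP response element TGACGTCA and the GC box GGGCGG, each on either strand. The TATA motif TATAAA and a pair of forms of the TCF/LEF core, CTTTGAT on one hand and CTTTGTT on the other, were searched for in the same way, on both strands, and copies that overlap were each counted.
Dvl1 promoter, chr4:155847152-155847451, + strand: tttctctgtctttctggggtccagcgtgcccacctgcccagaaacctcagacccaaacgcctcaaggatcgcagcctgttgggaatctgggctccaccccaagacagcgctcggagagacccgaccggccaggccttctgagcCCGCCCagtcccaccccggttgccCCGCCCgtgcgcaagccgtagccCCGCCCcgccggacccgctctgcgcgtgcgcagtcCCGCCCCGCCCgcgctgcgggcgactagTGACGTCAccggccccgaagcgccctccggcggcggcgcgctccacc
Dvl2 promoter, chr11:70000342-70000641, + strand: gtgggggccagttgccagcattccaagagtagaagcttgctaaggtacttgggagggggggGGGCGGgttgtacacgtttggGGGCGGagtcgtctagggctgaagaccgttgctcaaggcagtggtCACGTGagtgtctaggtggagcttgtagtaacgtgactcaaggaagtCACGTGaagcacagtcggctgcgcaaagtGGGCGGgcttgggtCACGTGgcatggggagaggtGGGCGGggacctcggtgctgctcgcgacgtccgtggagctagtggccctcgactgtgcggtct
Dvl3 promoter, chr16:20516736-20517035, + strand: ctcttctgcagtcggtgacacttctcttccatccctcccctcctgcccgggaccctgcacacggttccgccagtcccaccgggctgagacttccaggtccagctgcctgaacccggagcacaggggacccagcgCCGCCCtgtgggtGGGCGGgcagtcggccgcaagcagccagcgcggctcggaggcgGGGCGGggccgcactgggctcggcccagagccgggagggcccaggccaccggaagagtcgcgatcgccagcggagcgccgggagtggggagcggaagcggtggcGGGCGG
Ryk promoter, chr9:102834670-102834969, + strand: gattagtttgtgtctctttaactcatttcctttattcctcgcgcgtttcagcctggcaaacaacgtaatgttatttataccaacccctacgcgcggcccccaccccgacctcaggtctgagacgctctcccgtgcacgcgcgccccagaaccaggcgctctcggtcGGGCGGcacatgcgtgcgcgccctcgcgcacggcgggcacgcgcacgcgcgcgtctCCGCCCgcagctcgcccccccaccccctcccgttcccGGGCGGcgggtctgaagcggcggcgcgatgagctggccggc

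The Dvl2 window held 3 copies of CACGTG. Every other window of the listed genes, including those of Dvl1, Dvl3, Ryk and Ankrd6, held 0. Of 32851 windows of the same length in the RefSeq table, 7.15% held the motif at least once and 0.0883% held it 3 or more times. TGACGTCA stood once in the Dvl1 window, as it did in 1.79% of all windows. GGGCGG was counted 5 times in the Dvl1 window, 4 times in those of Dvl2 and Dvl3 and 3 times in that of Ryk, against shares of all windows of 35.7% with at least one copy and 10.7% with 3 or more. The Ryk window had 42 CpG dinucleotides, the Dvl1 window 35, the Dvl3 window 30 and the Dvl2 window 20, where the median window had 7. In all, 9 of the 10 genes matched the table with 12 windows. None of the 12 held CTTTGAT or CTTTGTT, which 3.73% and 5.85% of all windows hold, and only the Ryk window held TATAAA, which 13.6% of all windows hold. These matches describe letters in a window and were not tested against the array values.

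Readings are log2 probe-set intensities as the authors deposited them, on which 1 unit is a doubling. Differences are double-null minus Fz8-null, ± is the SD of 3 arrays, SE is limma's moderated standard error, and adjusted p is limma's p after Benjamini-Hochberg adjustment over all genes or all probe sets, with a threshold of 0.05. Array medians lay between 6.02 and 6.14. The 27 control probe sets for Bacillus subtilis transcripts, which mouse RNA should not bind, read 1.96 to 4.11, and this range was taken as background. Fzd4, which encodes Fz4, read 5.29, 4.96 and 3.89 in M1, M2 and M3, against 10.74, 10.86 and 10.93 in C1, C2 and C3 (probe set 1434756_at), and it fell by 6.13 (SE 0.35, adjusted p = 0.00957 over all probe sets). In the fit over genes it passed (adjusted p = 0.00318) but did not without C1 or without C3 (0.0635 and 0.0507). The exact two-sided permutation p of Fzd4 was 0.1, the smallest that 3 arrays against 3 can give. Fzd8 read 3.57 to 3.90 in double-null and 3.58 to 4.42 in Fz8-null kidneys, near background in both (probe set 1423348_at, exact p = 0.3). The kidney markers Wt1 and Foxd1 were well above background in both genotypes. Wt1 averaged 10.48 ± 0.16 in double-null and 10.75 ± 0.061 in Fz8-null kidneys, and Foxd1 averaged 10.03 ± 0.065 in double-null and 10.10 ± 0.10 in Fz8-null kidneys. Not every kidney marker was: the podocyte gene Nphs1 averaged 3.47 in double-null and 3.44 in Fz8-null kidneys, within the background range.

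The arrays also differed in ways the genotype labels do not name. The control for the B1 repeat read 11.83, 12.08 and 10.85 in M1, M2 and M3, against 11.02, 10.67 and 10.73 in C1, C2 and C3, so that M1 and M2 stood apart from the other 4. The 5′ control for 18S ribosomal RNA read 9.86 to 10.56 in double-null and 7.59 to 8.53 in Fz8-null arrays. The hybridization controls BioB and BioC averaged 10.98, 11.25 and 11.17 in M1, M2 and M3, against 10.81, 10.22 and 10.12 in C1, C2 and C3. The 18S and hybridization controls thus lay higher on every double-null array, M3 included. What goes with them and what goes with genotype cannot be told apart. The reading at the 5′ end of actin minus that at its 3′ end, a sign of RNA length, was -1.300, -1.081 and -0.574 in M1, M2 and M3, against -1.003, -0.744 and -0.754 in C1, C2 and C3, with C1 near M2. Differences had a median of -0.061 among all genes, 58.1% of which lay below 0. Among the 11174 brighter genes, those whose mean reading is 6 or more and to which all 10 belong, the median was -0.15 and 71.5% lay below 0. The part of these array differences in the results below was not tested, apart from the fits that are named with them. M1 and M2 had the highest B1 signal, so B1 and genotype are partly confounded. A fit with the B1 covariate can therefore take out a genotype difference too, and cannot tell the 2 apart.

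None of the 10 genes passed the threshold, where 5 of 18193 genes did, or 0.0275% (0.022% lower). At an unadjusted p under 0.05 limma gave 3 of the 10 (Dvl2, Ankrd6 and Ryk), all lower, against 9.23% of all genes lower and 15.3% in either direction. Of the 11174 brighter genes, 1384 were lower at that p. All 10 differences lay below 0, between -0.68 for Dvl2 and -0.046 for Dvl3, with a median of -0.26. For the same 3 genes every double-null array lay below every Fz8-null array, which held for 12.2% of all genes and 16.3% of the brighter genes, and for none of the 10 did every double-null array lie above, which held for 6.68% of all genes and 3.08% of the brighter genes. Kidneys were profiled whole, so fewer cells of a type that makes a transcript and less of it in each cell cannot be told apart.

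**Figure D1:**
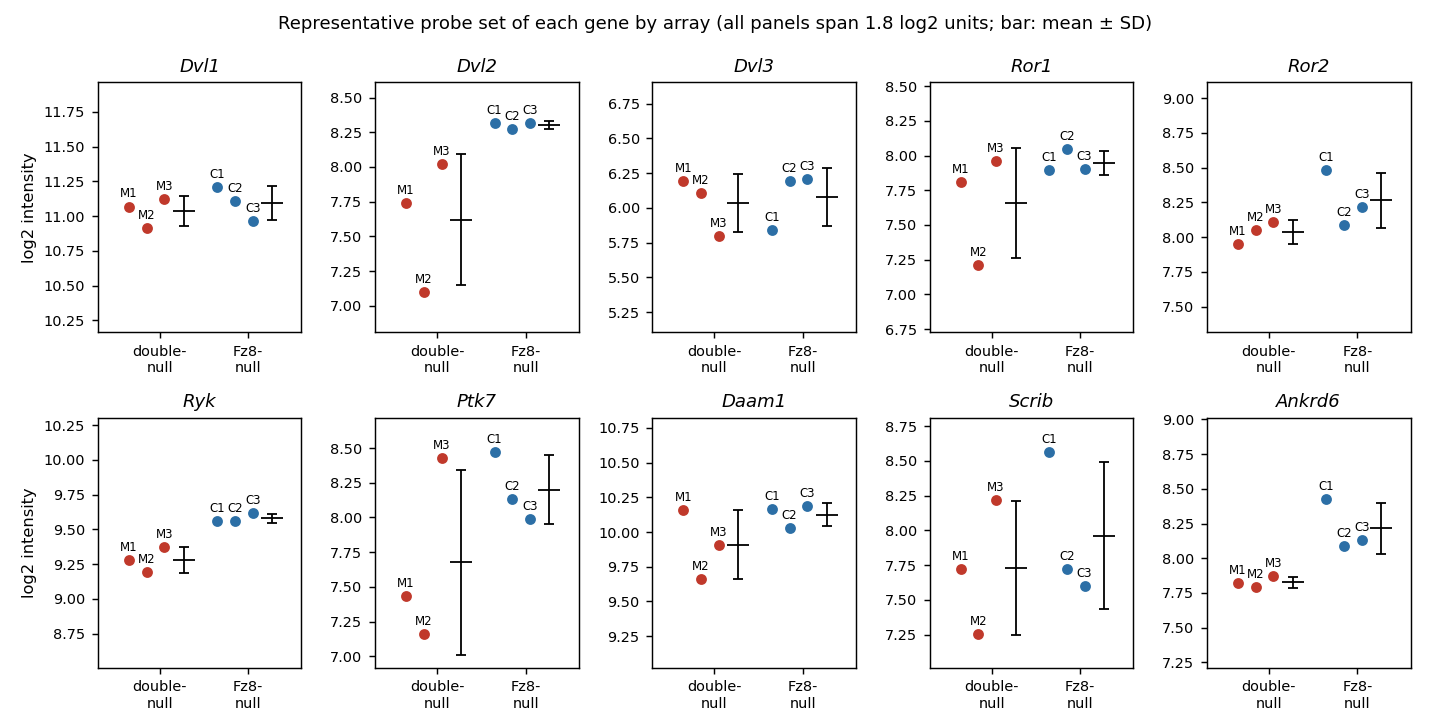
Log2 intensity of the representative probe set of each gene, with 1 point for each array, double-null kidneys (M1 to M3, red) on the left and Fz8-null kidneys (C1 to C3, blue) on the right; the bar beside each group is its mean ± SD of 3 arrays. The groups are separate for Dvl2, Ryk and Ankrd6 and overlap for the other 7 genes, and M2 is the lowest of the 6 arrays for 8 of the 10.

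Among the Dishevelled genes, Dvl2 alone had separate groups. Dvl2 read 7.74, 7.10 and 8.02 in M1, M2 and M3, against 8.32, 8.27 and 8.32 in C1, C2 and C3 (probe set 1417207_at). All 3 double-null arrays were low, M2 most of all, while the Fz8-null arrays lay within a narrow band. The means were 7.62 ± 0.47 in double-null and 8.30 ± 0.027 in Fz8-null kidneys (SD, n = 3 each), a difference of -0.68 (SE 0.24, 95% interval -1.24 to -0.12), or 1.61-fold lower. It was the lowest of the 10 differences and had the smallest p of them, and it did not pass (adjusted p = 0.314). The fit gave -0.42 without M2 and -0.88 without M3, and without M3 it passed (adjusted p = 0.0319), as did 18.1% of all genes in that fit. With the B1 signal as a covariate the difference was -0.25 (adjusted p = 0.997), and in M3 alone, without M1 and M2, it was -0.28. With limma's array weights, which gave M1 a weight of 4.43 and M3 one of 0.18, 4 of the 10 genes passed (Dvl2, Ryk, Ptk7 and Ankrd6), as did 42.5% of all genes.

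Dvl1 read 11.07, 10.91 and 11.12 in M1, M2 and M3, against 11.21, 11.11 and 10.96 in C1, C2 and C3 (1437301_a_at). The groups overlapped, with M2 alone below the Fz8-null range, and the difference was -0.059 (SE 0.13, 95% interval -0.38 to 0.26, adjusted p = 0.832). Dvl3 read 6.19, 6.11 and 5.80 in M1, M2 and M3, against 5.84, 6.20 and 6.21 in C1, C2 and C3 (1420457_at), also with overlap, M3 and C1 being the low arrays. Its difference was -0.046 (SE 0.17, 95% interval -0.45 to 0.36, adjusted p = 0.902). It turned to 0.0094 with equal array medians and 0.014 with quantile normalization, and that of Dvl1 turned to 0.011 with the B1 covariate. Taken within each array and against the Fz8-null mean, Dvl2 minus Dvl1 was -0.53, -1.02 and -0.31 in M1, M2 and M3, against -0.10, -0.043 and 0.14 in C1, C2 and C3. For these representative probe sets the measure shows unequal readings of the pair on the double-null arrays. The measure was chosen after their values were seen and was not tested. It was not taken with the second Dvl1 probe set (1450978_at, below), which was itself low in M1 and M2. Dvl2 minus Dvl3 was -0.67, -1.23 and -0.0055 in M1, M2 and M3, so in M3 this pair stood together.

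Dvl1 and Dvl2 each had a further probe set. The second Dvl1 probe set (1450978_at) read 7.10, 7.06 and 7.72 in M1, M2 and M3, against 7.71, 7.67 and 7.54 in C1, C2 and C3, a difference of -0.35 (SE 0.21). Here M1 and M2 were low and M3 was the highest of the 6 arrays, unlike in the representative Dvl1 probe set, where all 6 arrays lay close. The second Dvl2 probe set (1448616_at) lay within the background range on 4 of 6 arrays, with a difference of -0.37 (SE 0.20).

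Among the receptors, Ryk, which carries a Wnt-binding domain outside the cell and an inactive kinase domain inside, read 9.28, 9.19 and 9.38 in M1, M2 and M3, against 9.56, 9.56 and 9.62 in C1, C2 and C3 (1426388_s_at). The groups were separate and each was tight. The difference was -0.30 (SE 0.12, 95% interval -0.58 to -0.014), or 1.23-fold lower, and it did not pass (adjusted p = 0.323). It lay between -0.35 and -0.25 when any 1 array was left out and was -0.20 with the B1 covariate. The suffix _s_at marks a probe set whose probes can match more than one transcript, so the reading may not be of Ryk alone. A further Ryk probe set (1447400_at) read 6.27, 7.02 and 7.19 in M1, M2 and M3, against 7.15, 7.99 and 7.96 in C1, C2 and C3, a difference of -0.88 (SE 0.33) with M3 just above C1. The remaining one (1451789_a_at) stood at -0.29 (SE 0.23), and there M3 read 8.62, the highest value of the 6. Without M1 the last difference was -0.11 and without M3 -0.51.

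Ptk7, a pseudokinase receptor that takes part in planar cell polarity, was measured by 1 probe set (1452589_at). It read 7.44, 7.16 and 8.43 in M1, M2 and M3, against 8.47, 8.13 and 7.99 in C1, C2 and C3. M1 and M2 were far below all Fz8-null arrays, and M3 lay among them. The means were 7.68 ± 0.67 in double-null and 8.20 ± 0.25 in Fz8-null kidneys (SD, n = 3 each), and the difference of -0.52 (SE 0.33, 95% interval -1.31 to 0.26) did not pass (adjusted p = 0.437). Without M3 it was -0.90 and passed (adjusted p = 0.0241). Without M2 it was -0.27 (adjusted p = 0.805), without M1 and M2 it was 0.23, and with the B1 covariate 0.14.

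Ror2, the receptor of Wnt5a, read 7.95, 8.05 and 8.11 in M1, M2 and M3, against 8.48, 8.09 and 8.22 in C1, C2 and C3 (1423428_at). M3 lay just above C2, which is the whole overlap. The difference was -0.23 (SE 0.15, 95% interval -0.57 to 0.12, adjusted p = 0.444), and without C1 it was -0.12. The further Ror2 probe set (1457128_at) gave the lowest difference of the 21 probe sets, -0.99 (SE 0.29, adjusted p = 0.322 over all probe sets). It read 4.15, 4.05 and 5.07 in M1, M2 and M3, against 5.24, 5.34 and 5.65 in C1, C2 and C3, with the groups separate and M2 inside the background range.

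Ror1, the close relative of Ror2, read 7.81, 7.21 and 7.96 in M1, M2 and M3, against 7.90, 8.05 and 7.90 in C1, C2 and C3 (1429313_at). M2 was far below the Fz8-null arrays, M1 just below and M3 among them, and the difference was -0.29 (SE 0.21, 95% interval -0.79 to 0.21, adjusted p = 0.490), or -0.063 without M2. The other Ror1 probe sets stood at 0.041 (1429312_s_at, SE 0.21) and 0.15 (1451014_at, SE 0.19), the second with all 6 arrays within the background range. Ror1 was the one gene of the 10 with probe sets on both sides of 0.

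Ankrd6 was the effector whose groups were separate. Its representative probe set (1437217_at) read 7.82, 7.79 and 7.87 in M1, M2 and M3, against 8.43, 8.09 and 8.13 in C1, C2 and C3. The double-null arrays were nearly equal, and C1 was the highest. The means were 7.83 ± 0.040 in double-null and 8.22 ± 0.19 in Fz8-null kidneys (SD, n = 3 each), and the difference was -0.39 (SE 0.14, 95% interval -0.72 to -0.056), or 1.31-fold lower, and did not pass (adjusted p = 0.314). It ranged from -0.45 to -0.28 when any 1 array was left out and was -0.40 with the B1 covariate and -0.34 in M3 alone.

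Both further Ankrd6 probe sets lay lower by more. The one with the smallest p of the 21 (1421386_at) read 4.78, 4.93 and 5.59 in M1, M2 and M3, against 5.79, 6.30 and 6.11 in C1, C2 and C3, again without overlap. Its difference was -0.96 (SE 0.25, 95% interval -1.57 to -0.35, adjusted p = 0.322 over all probe sets). The third (1450227_at) stood at -0.90 (SE 0.33), with M3 at 6.11 beside C1 at 6.09. The mean of the 3 Ankrd6 probe sets differed by -0.75 (adjusted p = 0.297).

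Daam1 read 10.16, 9.66 and 9.91 in M1, M2 and M3, against 10.17, 10.03 and 10.18 in C1, C2 and C3 (1455244_at). M2 and M3 lay below the Fz8-null arrays and M1 within them, for a difference of -0.22 (SE 0.16, 95% interval -0.60 to 0.17, adjusted p = 0.499). Without M2 it was -0.092, without M1 -0.34, and with limma's array weights 0.0025. Its further probe sets stood at -0.27 (1458662_at, SE 0.31) and -0.42 (1431035_at, SE 0.25), both with overlap. Without M1 the first was 0.036 and without M3 -0.55, while the second was -0.18 without M3 and -0.63 without M2. Scrib read 7.72, 7.25 and 8.22 in M1, M2 and M3, against 8.57, 7.72 and 7.60 in C1, C2 and C3 (1427064_a_at). C1 stood above the other 5 arrays, and the spread within each genotype (SD 0.48 in double-null, 0.53 in Fz8-null) was larger than the difference of -0.23 (SE 0.33, 95% interval -1.02 to 0.56, adjusted p = 0.730). Without C1 the Scrib difference was 0.072, and without M2 it was 0.0085.

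**Figure D2:**
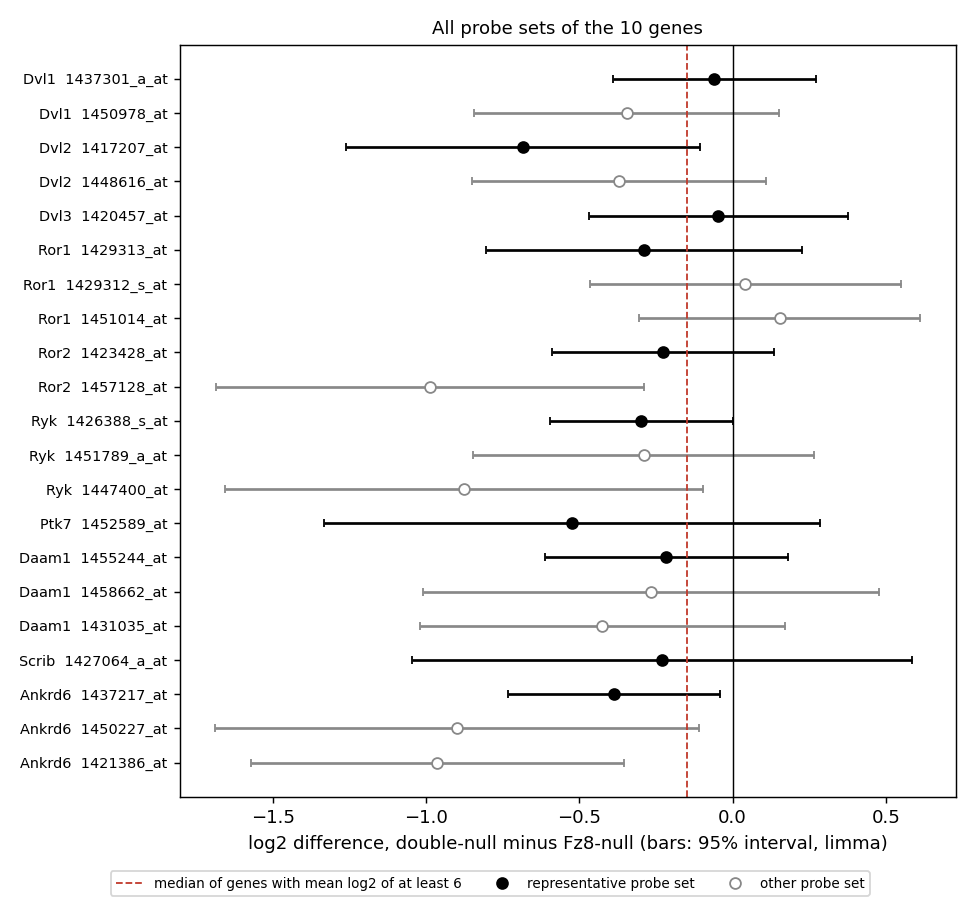
Log2 difference, double-null minus Fz8-null, for all 21 probe sets of the 10 genes, with 95% intervals from the limma fit over all probe sets; filled points are representative probe sets, open points the others, and the dashed line is the median of the brighter genes (mean of 6 or more), at -0.15. Of the 21, 19 lie below 0 and those above 0 are both of Ror1.

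Over the 21 probe sets, 0 passed, against 0.0111% of all 45037, and limma gave 6 at an unadjusted p under 0.05, against 15.4% of all. Differences lay below 0 for 19 of them (55.6% of all probe sets) and had a median of -0.30. The groups were separate, with double-null lower, for 5 of 21, or 23.8%, against 11.3% of all probe sets, and with double-null higher for 0 of 21, against 7.35% of all. The 5 are those of Dvl2 and Ryk named first above, the further one of Ror2 and a pair of Ankrd6. Without M3, 6 of the 21 passed: those of Dvl2 and Ptk7 named first above, the further ones of Dvl1 and Ror2 and both further ones of Ankrd6, and so did 23.9% of all probe sets. With the B1 covariate the further probe sets stood at -0.33 for Ror2 (1457128_at), -0.43 and -0.13 for Ankrd6 (1421386_at and 1450227_at) and -0.46 for Ryk (1447400_at), and 0 passed. Probe sets of a gene share its transcripts and are not replicates.

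The 3 double-null arrays did not contribute equally. Against the Fz8-null mean, the 10 genes had a median of -0.27 (M1), -0.44 (M2) and -0.18 (M3), where the brighter genes as a whole had medians of -0.17, -0.25 and -0.018. M2 was the lowest of the 6 arrays for 8 of the 10 genes, M1 for Ror2 and M3 for Dvl3, and C1 was the highest for 6. In M2, 9 of the 10 genes lay below the lowest Fz8-null array, in M1 6 did and in M3 5 did. The same held for 46.9% of all genes in M2, 42% in M1 and 26% in M3, and for 59.9%, 52.4% and 29.9% of the brighter genes. The order of the double-null arrays was that of their B1 signal, which was highest in M2 and lowest in M3. C1, whose B1 signal was above that of M3, had a median of 0.079, the highest of the 6 arrays. In M2 Dvl2 stood at -1.20, Ptk7 at -1.04, Ror1 at -0.74 and Scrib at -0.71. In M3 Dvl2 stood at -0.28, Ror1 at 0.011, Ptk7 at 0.23 and Scrib at 0.26, so that only Dvl2 of these 4 was below the Fz8-null mean. Dvl2, Ryk, Ror2 and Ankrd6 lay below that mean in all 3 arrays. With the B1 signal as a covariate, 6 of the 10 differences lay below 0, their median was -0.19 and that of all genes was 0.0027. The same 6 of 10 count was found without M1 and M2, with a median of -0.18.

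**Figure D3:**
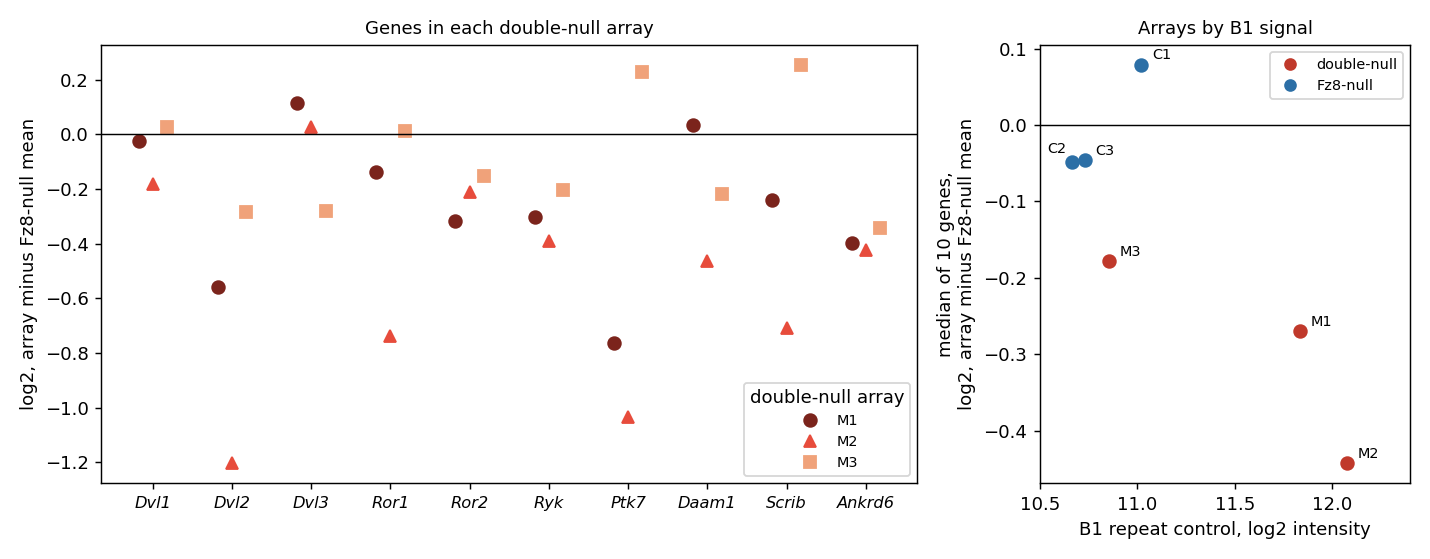
Left, log2 reading of each gene in M1 (circles), M2 (triangles) and M3 (squares) minus the mean of the 3 Fz8-null arrays. Right, the median of the 10 genes on the same scale against the log2 signal of the B1 repeat control, with 1 point for each double-null (red) and Fz8-null (blue) array. M2 has the highest B1 signal, 12.08, and the lowest median, -0.44.

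The genes most like Dvl2, the member of smallest p, were Cyp27a1 (Pearson r = 0.999), Hmcn1 (r = 0.998) and Prrc1 (r = 0.998) over the 6 arrays, out of 11164 other brighter genes. These r describe 6 points that share arrays and genotype groups, and 460 of those genes had an r above 0.95. Hmcn1 differed by -0.80, Cyp27a1 by -0.26 and Prrc1 by -0.24, and none passed (adjusted p = 0.314, 0.363 and 0.392).

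Other genes of the pathway were counted in 6 lists, and in none of them did a gene pass in either direction. Values given for single genes are differences. Of all genes, 58.1% lay lower and 12.2% lay lower without overlap. Of the brighter genes, 71.5% and 16.3% did. Of 8 Frizzled receptor genes other than Fzd4 and Fzd8, all 8 lay lower with a median of -0.25, and 1 was without overlap (12.5%). Fzd9 stood at -0.37 (SE 0.17) and Fzd2 at -0.25 (SE 0.14), both with overlap. With the mean of its probe sets Fzd2 was -0.52, and with the B1 covariate Fzd9 was -0.10. Of 13 measured core planar polarity and Fat-Dachsous genes, 12 lay lower with a median of -0.29 and 7 without overlap (53.8%). Fjx1, the mouse relative of four-jointed, which in Drosophila encodes a kinase of the Fat-Dachsous system, stood at -0.47 (SE 0.13) and Intu, a planar polarity effector of the cilium, at -0.51 (SE 0.15). All 6 genes of Wnt ligands with noncanonical activity lay lower, with a median of -0.23 and 1 without overlap, Wnt4 at -0.47 (SE 0.18), and Wnt9b, which the ureteric epithelium list below also holds, stood at -0.56 (SE 0.26), or -0.31 without M2 and -0.23 with array weights. At an unadjusted p under 0.05 limma gave 0, 5 and 1 genes in these 3 lists, all lower, against 9.23% of all genes lower.

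Closer to Dishevelled itself, 19 of 22 measured genes for proteins that bind or modify it lay lower, with a median of -0.25. Of the 22, 5 were lower without overlap (22.7%) and 1 was higher without overlap. Axin2, a canonical Wnt target whose product binds Dishevelled, read 8.70, 8.38 and 9.18 in M1, M2 and M3, against 9.63, 9.55 and 9.62 in C1, C2 and C3. It was low in all 3 double-null arrays, at -0.84 (SE 0.21, adjusted p = 0.314). With the B1 covariate and in M3 alone it was -0.42, and with the mean of its probe sets -0.52. Dixdc1, which shares the DIX domain of Dishevelled and Axin, stood at -0.61 (SE 0.15, adjusted p = 0.314), also without overlap. With the mean of its probe sets it was -0.11 (adjusted p = 0.625), and with the B1 covariate -0.39. Of 19 Scribble partners and apicobasal polarity genes, 17 lay lower, with a median of -0.32 and 6 without overlap (31.6%), among them Git2 at -0.40 (SE 0.13) and Dlg3 at -0.46 (SE 0.16). Of 18 genes of the calcium branch, 13 lay lower, with a median of -0.16 and 5 without overlap (27.8%). Camk2b, a calcium/calmodulin-dependent kinase subunit, stood at -0.80 (SE 0.18) and Plcb3 at -0.45 (SE 0.17), or -0.27 with the B1 covariate, with which Intu was -0.31 and Wnt4 -0.30. At an unadjusted p under 0.05 limma gave 3 genes lower of those that bind or modify Dishevelled and 4 of the Scribble partners. It gave 3 lower of the calcium branch, and 0 higher in each of these lists. Of all genes, 9.23% were lower at that p, and 12.2% lay lower without overlap.

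**Figure D4:**
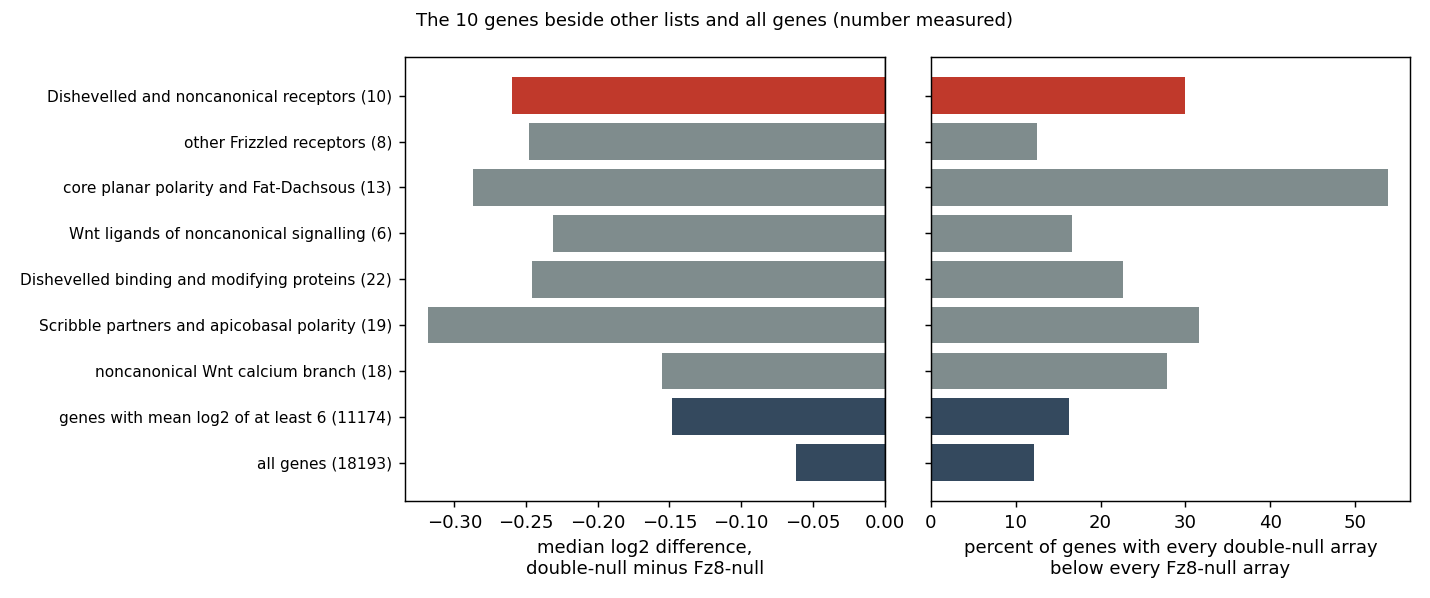
Median log2 difference, double-null minus Fz8-null (left), and percent of genes with every double-null array below every Fz8-null array (right), for the 10 genes (red), 6 further pathway lists (grey) and the brighter genes (mean of 6 or more) and all genes (dark); the number measured is in brackets. The 10 genes stand at -0.26 and 30%, the brighter genes at -0.15 and 16.3%, and all genes at -0.061 and 12.2%.

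Markers of kidney cell types also differed between these arrays, as did those of other cells and tissues, from liver to skeletal muscle. In these lists 0 genes passed the threshold over all genes. Each list is given by its median reading in M1, M2 and M3 against the Fz8-null mean. It was -0.70, -1.13 and -0.59 for 8 ureteric tip genes and -0.70, -0.96 and -0.52 for 7 nephron progenitor genes, with 6 and 5 of them lower without overlap. Of all genes, 12.2% lay lower without overlap and 6.68% higher, and of the brighter genes 16.3% and 3.08%. The median reading was -0.64, -0.92 and -0.069 for 7 endothelial genes, 3 of them lower without overlap. For 6 genes of the committing nephron (3 lower without overlap) it was -0.12, -0.53 and -0.022. For 7 of the ureteric epithelium (1 lower without overlap) it was -0.093, -0.33 and -0.15. Yet 4 of these 7 genes had differences above 0, and the median difference was 0.020. For 4 podocyte genes (1 lower without overlap) the median reading was 0.11, -0.21 and -0.049. For 8 stroma genes it was -0.0048, -0.11 and 0.057, with 1 lower and 2 higher without overlap. Liver genes stood at 0.94, 4.09 and 4.25 (6 genes, 5 higher without overlap) and erythroid genes at -0.51, 2.40 and 2.79 (7 genes, 2 higher without overlap). Macrophage genes stood at -0.27, 0.65 and 0.66 (7 genes, 1 higher without overlap). Neuron and neural crest genes stood at 0.075, 0.55 and 0.38 (7 genes, 2 higher without overlap), and skeletal muscle genes at -1.93, -0.71 and -0.28 (6 genes, 0 without overlap). The mean level of the liver list was 7.26 to 10.38 in double-null and 5.90 to 6.83 in Fz8-null arrays. The part of these cell types in the values of the 10 genes was not tested.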

How the data were processed

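The authors deposited 1 table of log2 probe-set intensities for 6 arrays, normalized with RMA per the submitters' processing notes (version not given in the sources used here) from biotin-labelled cRNA of 100 ng total RNA, per the labels' protocols. The log2 values were used as deposited. Of 45101 probe sets 64 controls were set aside, and of the 45037 tested the platform annotation gives 1 gene for 34945, several for 932 and none for 9160. Groups were taken from the genotype labels. Double-null and Fz8-null arrays were compared with limma 3.58.1 under R 4.3.3 (lmFit, eBayes without trend, two-sided), with Benjamini-Hochberg adjustment over all 18193 genes and, apart from that, over all probe sets. The model was tested on simulated data with independent noise for each probe set. That simulation had no shared array shifts or unequal array quality, so it cannot show how the model behaves with them. No 2 arrays were identical. Arrays carry no read depth, so their number limits the precision. The members, lists and alternatives were chosen with earlier results of these data known. Named genes were the members, Fzd4, Fzd8, the 2 genes of smallest p of each further list (no gene of those lists passed; 1 list is not reported here), and the 3 genes most correlated with the member of smallest p; single marker genes and the pair measure of Dishevelled genes were chosen after their values were seen. Alternatives were a minimum mean of 6, quantile normalization, equal array medians, trend and robust settings, array weights, a replicate block, leaving out each array, the mean of a gene's probe sets, the B1 covariate, leaving out M1 and M2, and an adjusted p of 0.1. Deviations from the group means of arrays that share a number had correlations of 0.17, -0.14 and 0.090, so replicate numbers were not taken as pairs. Promoter windows come from RefSeq (GRCm38.p6), matched by symbol.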

Additional observations from a re-analysis of the deposited data

How the results depend on the processing

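With 3 arrays a genotype, single arrays decide the counts. Leaving out each array in turn put the number of the 10 genes passing between 0 and 2 (Dvl2 and Ptk7, without M3), that of their probe sets between 0 and 6, the genes without overlap between 3 and 6 (6 without M3, where 34.1% of all genes were lower without overlap), the median of the 10 between -0.38 and -0.16, and all genes passing between 2 and 3292, the higher count without M3. It turned the sign of 3 of the 10 genes, with ranges of -0.12 to 0.0016 for Dvl1, -0.17 to 0.071 for Dvl3 and -0.47 to 0.072 for Scrib, and of the probe sets 1429312_s_at (-0.12 to 0.19) and 1458662_at (-0.55 to 0.036). Without M1, 39 genes passed. Array weights let 4 of the 10 genes pass (Dvl2, Ryk, Ptk7 and Ankrd6), where 7727 genes passed, or 42.5% of all. They let 12 of the 21 probe sets pass, where 45.9% of all probe sets did. They also put Dvl3 at 0.011 and Daam1 at 0.0025. The replicate block let 3 genes pass and changed no call among the 10. Quantile normalization moved the median of the 10 to -0.14, Dvl3 to 0.014 and the probe sets 1429312_s_at and 1451014_at to -0.055 and -0.033, and equal array medians put Dvl3 at 0.0094. With a gene's probe sets averaged, 1 gene passed and the median of the 10 was -0.39, and at an adjusted p of 0.1, 11 genes passed.

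With the B1 covariate 3 genes passed, the median of the 10 was -0.19, and Dvl1 stood at 0.011, Ror1 at 0.075, Ptk7 at 0.14, Scrib at 0.11, Fzd8 at 0.030, 1450978_at at 0.053, 1429312_s_at at -0.21, 1451014_at at -0.18, 1451789_a_at at 0.16 and 1458662_at at 0.13. Without M1 and M2 together, where M3 is assumed to vary like the Fz8-null arrays, 55 genes passed, 5 of the 10 were without overlap (26% of all genes), their median was -0.18, and Dvl1 stood at 0.029, Ror1 at 0.011, Ptk7 at 0.23, Scrib at 0.26, 1450978_at at 0.087, 1429312_s_at at -0.16, 1451014_at at -0.19, 1451789_a_at at 0.16 and 1458662_at at 0.31. Of 160 differences of the 10 genes under alternatives, 136 kept their direction and side of the threshold, 6 came to pass and 18 changed sign. The 136 include differences that could not change direction. The minimum mean of 6, the trend and robust settings, the replicate block and the adjusted p of 0.1 leave each difference as it was. The count is therefore no measure of stability. The cause of these changes was not tested.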
